A study of Mus musculus with 48 samples.

Results

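Captured methylated DNA was followed at 10 genes of the enteric nervous system, the neurons and glia of the gut wall: Ret, Gfra1, Ednrb, Sox10, S100b, Elavl4, Uchl1, Nos1, Chat and Slc6a17. Every deposited region that overlapped one of these genes or lay within 5 kb of it was taken, using RefSeq gene positions on mm10, which gave 65 of 95882 regions. All 10 genes had at least 2 regions. The gut of 7 GermFree mice, described in the labels as germ free, and 5 ConvR mice, described as conventionalized, was sampled at duodenum, jejunum, ileum and colon, with 1 library per mouse and section and 48 libraries in all. The sources used here give no strain, sex, age or time since conventionalization, and the tissue is labelled only as intestine. DNA was sheared and fragments with methylated CpGs were caught with a methyl-CpG-binding domain (the MethylMiner kit), so a level here is an amount of captured DNA, not RNA. In bulk tissue, more methylation in every cell and a larger share of methylated cells cannot be told apart.

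The enteric nervous system forms from neural crest cells that migrate along the gut. The receptor tyrosine kinase Ret, which answers ligands of the GDNF family through co-receptors such as Gfra1, and the endothelin receptor Ednrb are needed for that migration, and loss of any of them leaves parts of the gut without ganglia. In mammals, CpG-rich stretches at gene starts are mostly free of methylation, while the CpGs of gene bodies are mostly methylated, in neurons as in other cells.

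Most regions lay inside the genes and away from their starts. Of the 65 regions, 52 lay inside a gene, 11 lay within 5 kb outside it and 2 crossed an end of the gene. RefSeq gene-start windows, each of 250 bases before and 50 bases after a start on GRCm38.p6, were matched for 8 of the genes, all but Ret and Sox10, giving 12 windows. A single one of the 12 was touched by a region, the start of Nos1, the neuronal nitric oxide synthase of inhibitory motor neurons. The 250 bases before the starts of 4 genes are shown because they differ in CpG number, with each CpG in capitals: the touched Nos1 window (chr5:117866589-117866838, plus strand), the untouched windows of Uchl1 (chr5:66675871-66676120, plus strand) and S100b (chr10:76253586-76253835, plus strand), and the outermost start of Slc6a17 (chr3:107518019-107518268, minus strand), all from RefSeq.
Nos1: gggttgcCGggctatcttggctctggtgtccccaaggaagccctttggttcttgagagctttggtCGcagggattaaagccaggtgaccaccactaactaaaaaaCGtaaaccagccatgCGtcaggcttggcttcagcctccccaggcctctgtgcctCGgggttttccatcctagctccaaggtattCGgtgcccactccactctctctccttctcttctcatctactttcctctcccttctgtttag
Uchl1: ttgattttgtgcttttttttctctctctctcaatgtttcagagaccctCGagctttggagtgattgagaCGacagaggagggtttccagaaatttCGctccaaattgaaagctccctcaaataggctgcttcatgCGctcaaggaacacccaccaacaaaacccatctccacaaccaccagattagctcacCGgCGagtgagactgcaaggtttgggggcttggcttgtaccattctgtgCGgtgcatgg
S100b: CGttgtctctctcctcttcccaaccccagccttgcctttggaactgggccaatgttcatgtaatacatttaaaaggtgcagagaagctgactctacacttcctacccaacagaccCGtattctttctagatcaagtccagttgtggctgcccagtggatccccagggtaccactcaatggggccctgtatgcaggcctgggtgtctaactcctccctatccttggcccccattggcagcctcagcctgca
Slc6a17: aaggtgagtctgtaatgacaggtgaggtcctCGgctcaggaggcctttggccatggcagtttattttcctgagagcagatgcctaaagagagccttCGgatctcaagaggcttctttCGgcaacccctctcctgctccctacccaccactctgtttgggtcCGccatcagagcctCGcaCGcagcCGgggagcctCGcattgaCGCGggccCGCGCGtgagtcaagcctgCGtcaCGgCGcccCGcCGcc

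These stretches held 6 CpGs at Nos1, 7 at Uchl1, 2 at S100b and 18 at the outermost Slc6a17 start. The whole windows of 300 bases held 6 CpGs at Nos1, 9 at Uchl1, 3 at S100b and 26 at that Slc6a17 start. Regions are numbered along each gene by coordinate, and the one that touches the start, Nos1 region 2 (chr5:117866386-117868292) began 453 bases before the start and ended 1453 bases after it. The nearest region lay 1797 bases from the Uchl1 window, 2874 bases from the S100b window and 21553 bases from the outermost Slc6a17 window. The other untouched windows held 12 CpGs at Gfra1, 15 at Ednrb, 10 at Chat, and 4, 6, 5 and 23 at the 4 starts of Elavl4. The Elavl4 windows, some of which overlap each other, lay 18790 to 44841 bases from a region. The inner start of Slc6a17, with 3 CpGs, lay 4275 bases from the nearest region. Among all 32817 windows in the table, 2812 (8.57%) were touched by a region. The share was 7.23% of windows with 0 to 4 CpGs, 22.3% with 5 to 9, 8.75% with 10 to 19 and 0.760% with 20 or more. The search was for the letters CG, which read the same on both strands. A window without a region says only that no region was called there, and 1 touched window of 12 is too few to set these genes apart from the rest.

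**Figure D1:**
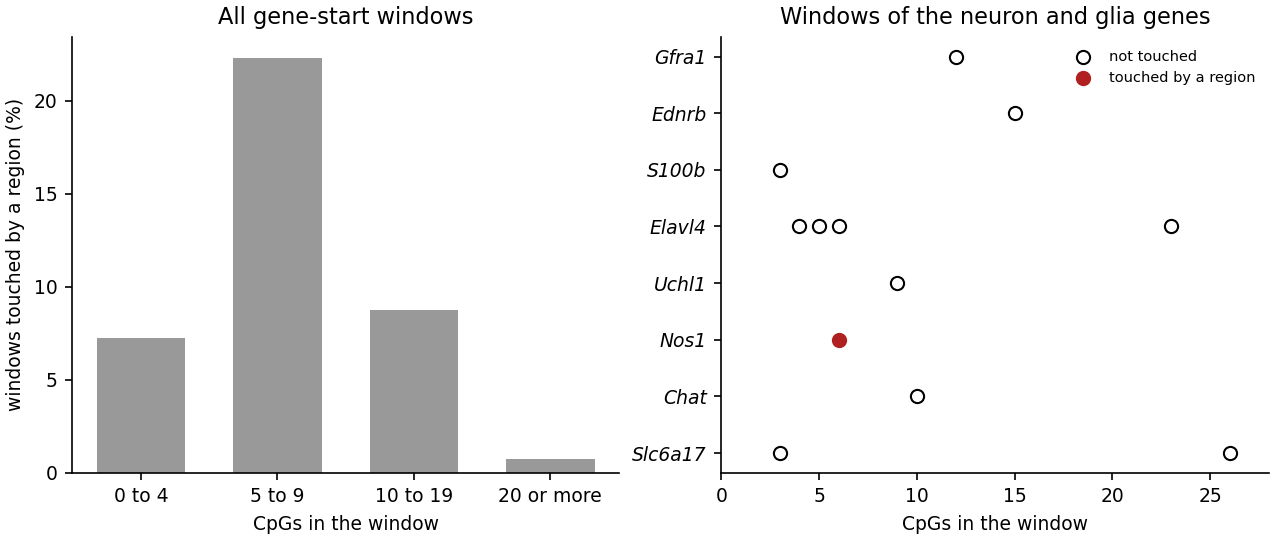
Left, the percentage of all gene-start windows touched by a region, by the number of CpGs in the window; right, the CpG number of each of the 12 windows of 8 enteric genes, filled where touched. Windows with 5 to 9 CpGs were touched most often (22.3%), and the Nos1 window, with 6 CpGs, is the filled point.

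The number of regions differed widely among the genes, and the level of a region followed its width. Gfra1 had 20 regions over a gene body of 220366 bases and Nos1 had 14 over 92002 bases. Ret had 8, Elavl4 had 6 and Uchl1 had 4, while Sox10, S100b and Slc6a17 had 3 each and Chat and Ednrb had 2 each. The median width was 999 bases (423 to 7165) for the 65 regions, against 1208 bases for all regions. Levels are given as CPM, which is counts scaled to the size of the library with TMM factors. The median level was 6.01 CPM for the 65 regions, against 7.32 CPM for all regions. Over the 65 regions, log width and log mean level correlated at r = 0.99, as a description across regions of the same libraries. Per kb the 65 regions lay between 4.57 and 8.83 CPM per kb, with a median of 6.29, against a median of 6.22 CPM per kb for all regions. The authors' peak score had a median of 11 for the 65 regions, against 10 for all regions. Of the 65, 7 (10.8%) had a score of 0, against 7.80% of all regions.

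**Figure D2:**
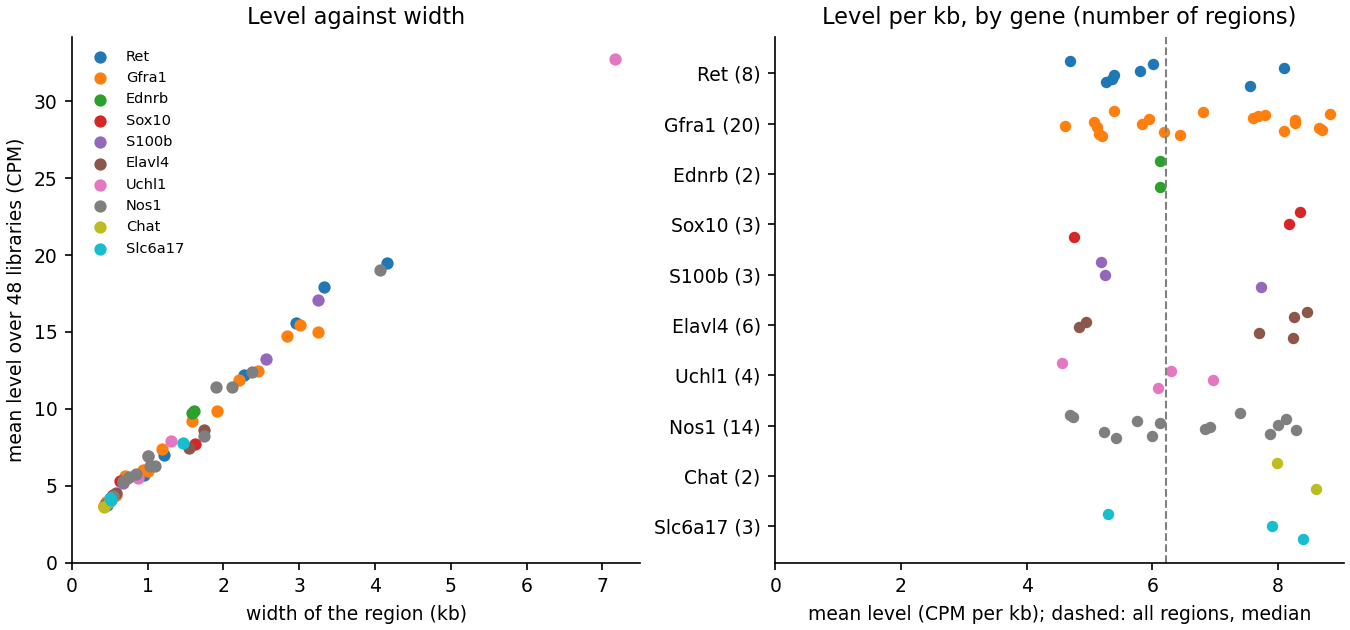
Left, mean level over the 48 libraries in CPM against width in kb for the 65 regions, coloured by gene; right, the level per kb by gene, with the median of all regions (6.22 CPM per kb) dashed. The points on the left rise together, and on the right all 65 lie between 4.57 and 8.83 CPM per kb.

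Summed over the regions of a gene, the level per kb was highest for Chat, choline acetyltransferase of cholinergic neurons, with a mean of 8.27 ± 2.31 CPM per kb (SD, n = 48 libraries). Slc6a17, a vesicular transporter of neutral amino acids in neurons, followed with 6.47 ± 1.29 CPM per kb. The transcription factor Sox10 of neural crest and glia had 6.24 ± 1.27 CPM per kb. Elavl4, a neuronal RNA-binding protein, had 6.13 ± 0.87 CPM per kb and Ednrb had 6.12 ± 0.95 CPM per kb. Gfra1 had 5.87 ± 0.34 CPM per kb and Nos1 had 5.81 ± 0.43 CPM per kb. S100b, a calcium-binding protein of glia, had 5.48 ± 0.73 CPM per kb and Ret had 5.42 ± 0.41 CPM per kb. Uchl1, a deubiquitinating enzyme abundant in neurons, was lowest with 5.14 ± 0.48 CPM per kb. No 2 neighbours in this order differed by more than the larger of their SDs, and the 2 regions of Chat are among the narrowest. Narrow regions tended to have more CPM per kb. Chat region 1, of 423 bases, had 8.60 CPM per kb, and Uchl1 region 4, of 7165 bases, had 4.57 CPM per kb. The order of the genes therefore cannot be told apart from the widths of their regions.

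Library totals ranged from 1230157 to 2902073 counts in GermFree libraries and from 1007560 to 3033782 counts in ConvR libraries. The 65 regions together held 517 to 1667 counts in a library, which is 0.0487% to 0.0574% of its total. The median region of a library held 7 to 23 counts, so a single region in a single library is known only roughly. No batch is named in the labels. The code at the start of the sample titles was tried as a block in an alternative. With the sections summed, edgeR then called 431 of 95882 regions between the models, against 455 without it. In duodenum, jejunum, ileum and colon it called 255, 225, 254 and 335 regions, against 351, 282, 312 and 401. Codes FUAQ, FFRV, NHSY, REXQ and ELNP were each carried by a GermFree and a ConvR mouse. Code TK4L was carried only by GermFree mice 5 and 7, so the code is not fully balanced between the models. Within a group of the same model and section, no pair of libraries differed by less than sampling noise. Nothing in the labels says how the mice were housed or bred. The p-values for the models rest on the spread between these mice. Those for the sections rest on the spread between libraries of the same model and section, with no term for the mouse unless a block is named. In edgeR the spread of each region was drawn strongly toward a trend over all regions. A p-value therefore does not measure the spread of the mice in that region alone.

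The comparison of GermFree with ConvR mice asks whether captured methylation differs between the models, and none of the 65 regions passed the test. Strain, sex, age, housing and breeding are not given, so the microbiota cannot be told apart from these. With the 4 sections of each mouse summed, 0 of 65 regions had an edgeR quasi-likelihood adjusted p under 0.05, where 0.475% of all 95882 regions did. All 65 lie on autosomes, and that share includes the sex chromosomes. A fit of autosomal regions alone called 276 of 94535, against 455 of 95882 over all regions. At an unadjusted p under 0.05 there were 3 of the 65, which is 4.62%, against 6.63% of all regions. Log2 differences of the 65 ran from -0.24 to 0.21 with a median of 0.01, against a median of -0.00 over all regions, and 33 of the 65 were positive. DESeq2 called 0 of the 65 too, with 0 at an unadjusted p under 0.05.

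Of the receptor genes, Ednrb region 1 (chr14:103815623-103817231, inside the gene) came nearest to the threshold. Its summed level was 9.07, 8.61, 9.73, 11.52, 8.004, 8.69 and 9.91 CPM in GermFree mice 1 to 7, against 9.73, 12.49, 11.86, 10.68 and 9.54 CPM in ConvR mice 1 to 5. The groups overlapped, with GermFree mice 3, 4 and 7 above the lowest ConvR mouse. The log2 difference was -0.22 (SE 0.10), with an edgeR adjusted p of 0.699. Ret region 5 (chr6:118178216-118179428, inside the gene) had the lowest log2 difference of the 65, -0.24 (SE 0.12), with an edgeR adjusted p of 0.756, and Ednrb region 2 had 0.07 (SE 0.10).

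For the glial genes, Sox10 region 1 (chr15:79149757-79151375), which lies outside the gene and also within 5 kb of Polr2f, a subunit of the RNA polymerases, was the nearest. Its summed level was 6.63, 8.03, 6.86, 7.33, 6.003, 8.46 and 7.12 CPM in GermFree mice 1 to 7, against 9.36, 8.33, 9.74, 7.08 and 8.32 CPM in ConvR mice 1 to 5. The 3 lowest values were those of GermFree mice and the 2 highest those of ConvR mice, with overlap between. The log2 difference was -0.24 (SE 0.11), with an edgeR adjusted p of 0.716. None of the 3 Sox10 regions lay inside the gene.

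Among the transmitter genes, Nos1 region 4 (chr5:117886597-117888968, inside the gene) was the nearest. Its summed level was 12.38, 14.35, 11.98, 13.41, 13.45, 15.55 and 10.80 CPM in GermFree mice 1 to 7, against 13.85, 11.55, 11.01, 10.31 and 10.86 CPM in ConvR mice 1 to 5. The groups overlapped, with ConvR mouse 1 above 5 of the 7 GermFree mice. The log2 difference was 0.21 (SE 0.09), with an edgeR adjusted p of 0.681. The other 13 regions of Nos1 did not share this sign throughout, and Nos1 region 2, at the start, averaged 11.1 ± 0.78 CPM in GermFree mice and 11.7 ± 1.69 CPM in ConvR mice (SD, n = 7 and 5).

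Section by section the same comparison again called none of these regions. In duodenum 0 of the 50 that had enough counts passed in edgeR, where 0.466% of all regions did. In jejunum it was 0 of 55, with 0.344% of all regions. In ileum it was 0 of 56, with 0.365% of all regions, and in colon 0 of 47, with 0.54% of all regions. At an unadjusted p under 0.05 there were 2 (4.00%) in duodenum, 4 (7.27%) in jejunum, 4 (7.14%) in ileum and 1 (2.13%) in colon, where 7.01%, 5.35%, 5.13% and 7.44% of all regions were. DESeq2 called 0 in each section, with 0, 1, 2 and 0 at an unadjusted p under 0.05 in the same order. Fits of autosomal regions alone in edgeR called 195 of 74154 in duodenum and 119 of 80622 in jejunum, against 351 and 282 with all regions. They called 158 of 84215 in ileum and 223 of 72343 in colon, against 312 and 401.

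In the ileum Nos1 region 4 gave the smallest p. Its level was 10.83 to 18.19 CPM with a median of 11.66 in the 7 GermFree ilea, against 6.07, 10.44, 9.37, 7.92 and 6.84 CPM in ConvR mice 1 to 5. The groups did not overlap. The region was picked for the smallest p of the 56 tested, and how often groups separate so over all regions was not counted. The log2 difference was 0.56 (SE 0.19), and the edgeR adjusted p was 0.527. Slc6a17 region 3 was next, with 5.00 to 11.58 CPM and a median of 6.501 in GermFree ilea, against 4.05, 4.72, 2.50, 5.42 and 4.28 CPM in ConvR mice 1 to 5. ConvR mouse 4 lay above the 2 lowest GermFree ilea. The log2 difference was 0.71 (SE 0.26), and the edgeR adjusted p was 0.738. Nos1 region 5, of 3.82 CPM on average over all libraries, had a log2 difference of 0.63 (SE 0.30).

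In the duodenum the smallest p was that of Elavl4 region 4. It had 5.27 to 15.39 CPM with a median of 11.07 in GermFree duodena, against 8.998, 9.14, 4.77, 7.01 and 5.78 CPM in ConvR mice 1 to 5. The groups overlapped, and the log2 difference was 0.51 (SE 0.22, edgeR adjusted p = 0.622). Ednrb region 1 had a log2 difference of -0.40 (SE 0.18) there. Uchl1 region 4, the widest of the 65 at 7165 bases, had one of 0.21 (SE 0.12). In the jejunum Gfra1 region 16, Nos1 region 3 and Uchl1 region 1 had log2 differences of 0.69 (SE 0.28), 0.57 (SE 0.26) and 0.46 (SE 0.22), with edgeR adjusted p-values of 0.801, 0.894 and 0.905. Nos1 region 3 had 5.45 to 9.80 CPM with a median of 5.92 in GermFree jejuna, against 2.54, 4.67, 5.99, 4.43 and 4.35 CPM in ConvR mice 1 to 5. A single ConvR jejunum, that of mouse 3, lay within the GermFree range. The fourth region with an unadjusted p under 0.05 in jejunum was Slc6a17 region 3, which differed by -0.43 on the log2 scale (SE 0.22, edgeR adjusted p = 0.932), opposite in sign to that in ileum. In the colon Elavl4 region 3, Gfra1 region 20 and Sox10 region 1 had log2 differences of 0.43 (SE 0.21), 0.34 (SE 0.17) and -0.42 (SE 0.22), with edgeR adjusted p-values of 0.659, 0.674 and 0.676.

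Counts summed over all regions of a gene are larger and narrow the intervals, and 0 of the 10 genes passed there in edgeR, where 0.496% of 30232 genes did with the sections summed. At an unadjusted p under 0.05 there was 1 of the 10, and DESeq2 was not run on totals. Gfra1, the gene with the highest total, averaged 149.9, 154.5, 151.1 and 154.7 CPM in GermFree duodenum, jejunum, ileum and colon. In ConvR mice it averaged 152.5, 152.2, 156.9 and 153 CPM in the same order. Its SDs in these 8 groups ran from 4.02 to 14.6 CPM, so the groups overlapped in all sections. The summed log2 difference of Gfra1 was 0.00 (95% interval -0.06 to 0.06), which bounds the fold between 0.958 and 1.05. Nos1 was bounded between 0.950 and 1.05 and Ret between 0.938 and 1.03 in the same way. S100b had the smallest p, with a log2 difference of 0.11 (95% interval 0.01 to 0.22, edgeR adjusted p = 0.645). Sox10 followed with -0.13 (95% interval -0.26 to -0.00, edgeR adjusted p = 0.669). Chat, with the fewest counts, was bounded only between 0.935 and 1.28. A total need not belong to the named gene alone. S100b regions 2 and 3 also overlap Dip2a or lie within 5 kb of it, and 19 of the 65 regions were this near another gene.

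**Figure D3:**
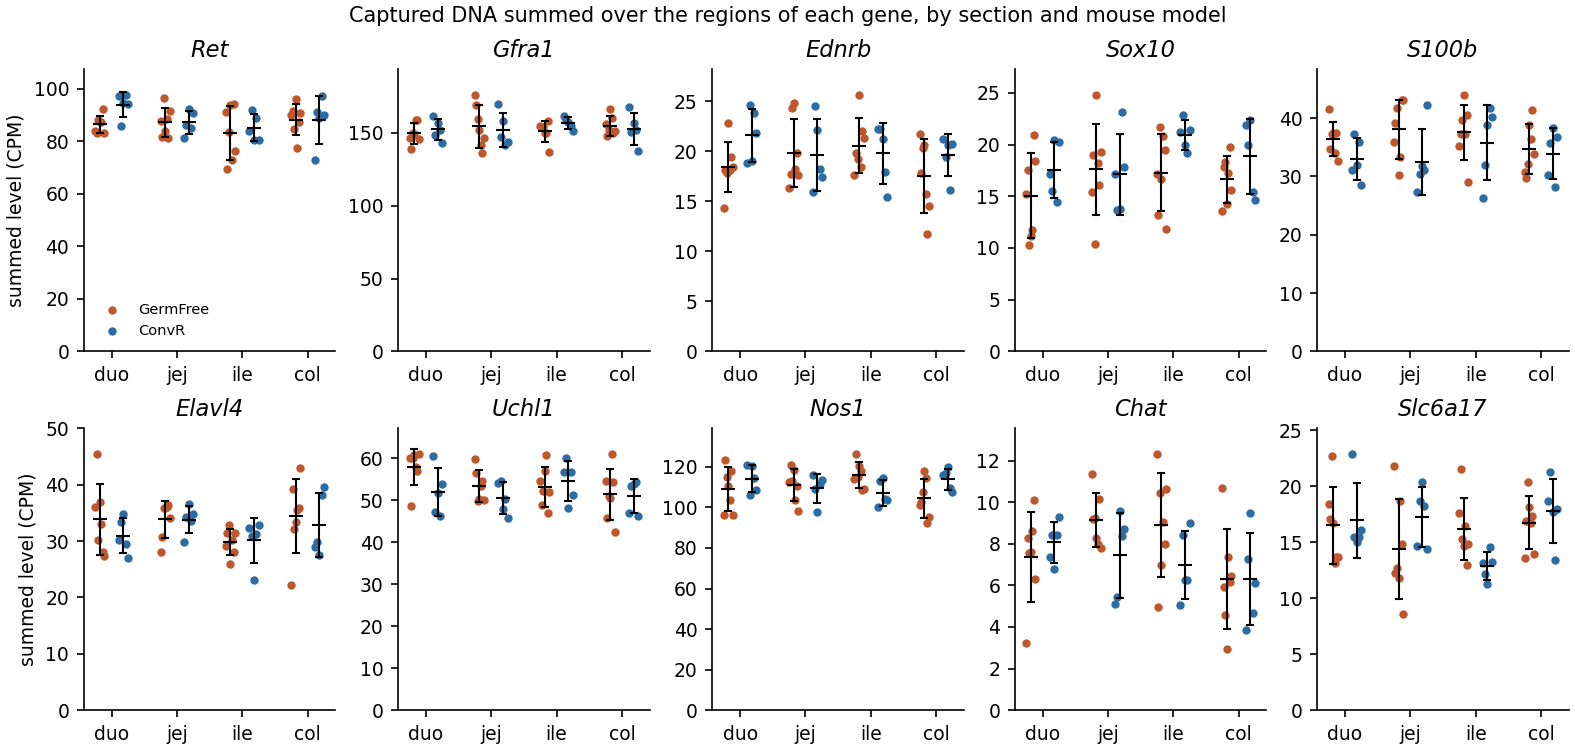
Level summed over the regions of each gene in CPM (vertical axis, from 0) in duodenum (duo), jejunum (jej), ileum (ile) and colon (col); points are mice, GermFree left of ConvR, with mean and SD in black. The models overlap for each of the 10 genes in all 4 sections, and Gfra1 stays near its mean of 153 CPM.

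**Figure D4:**
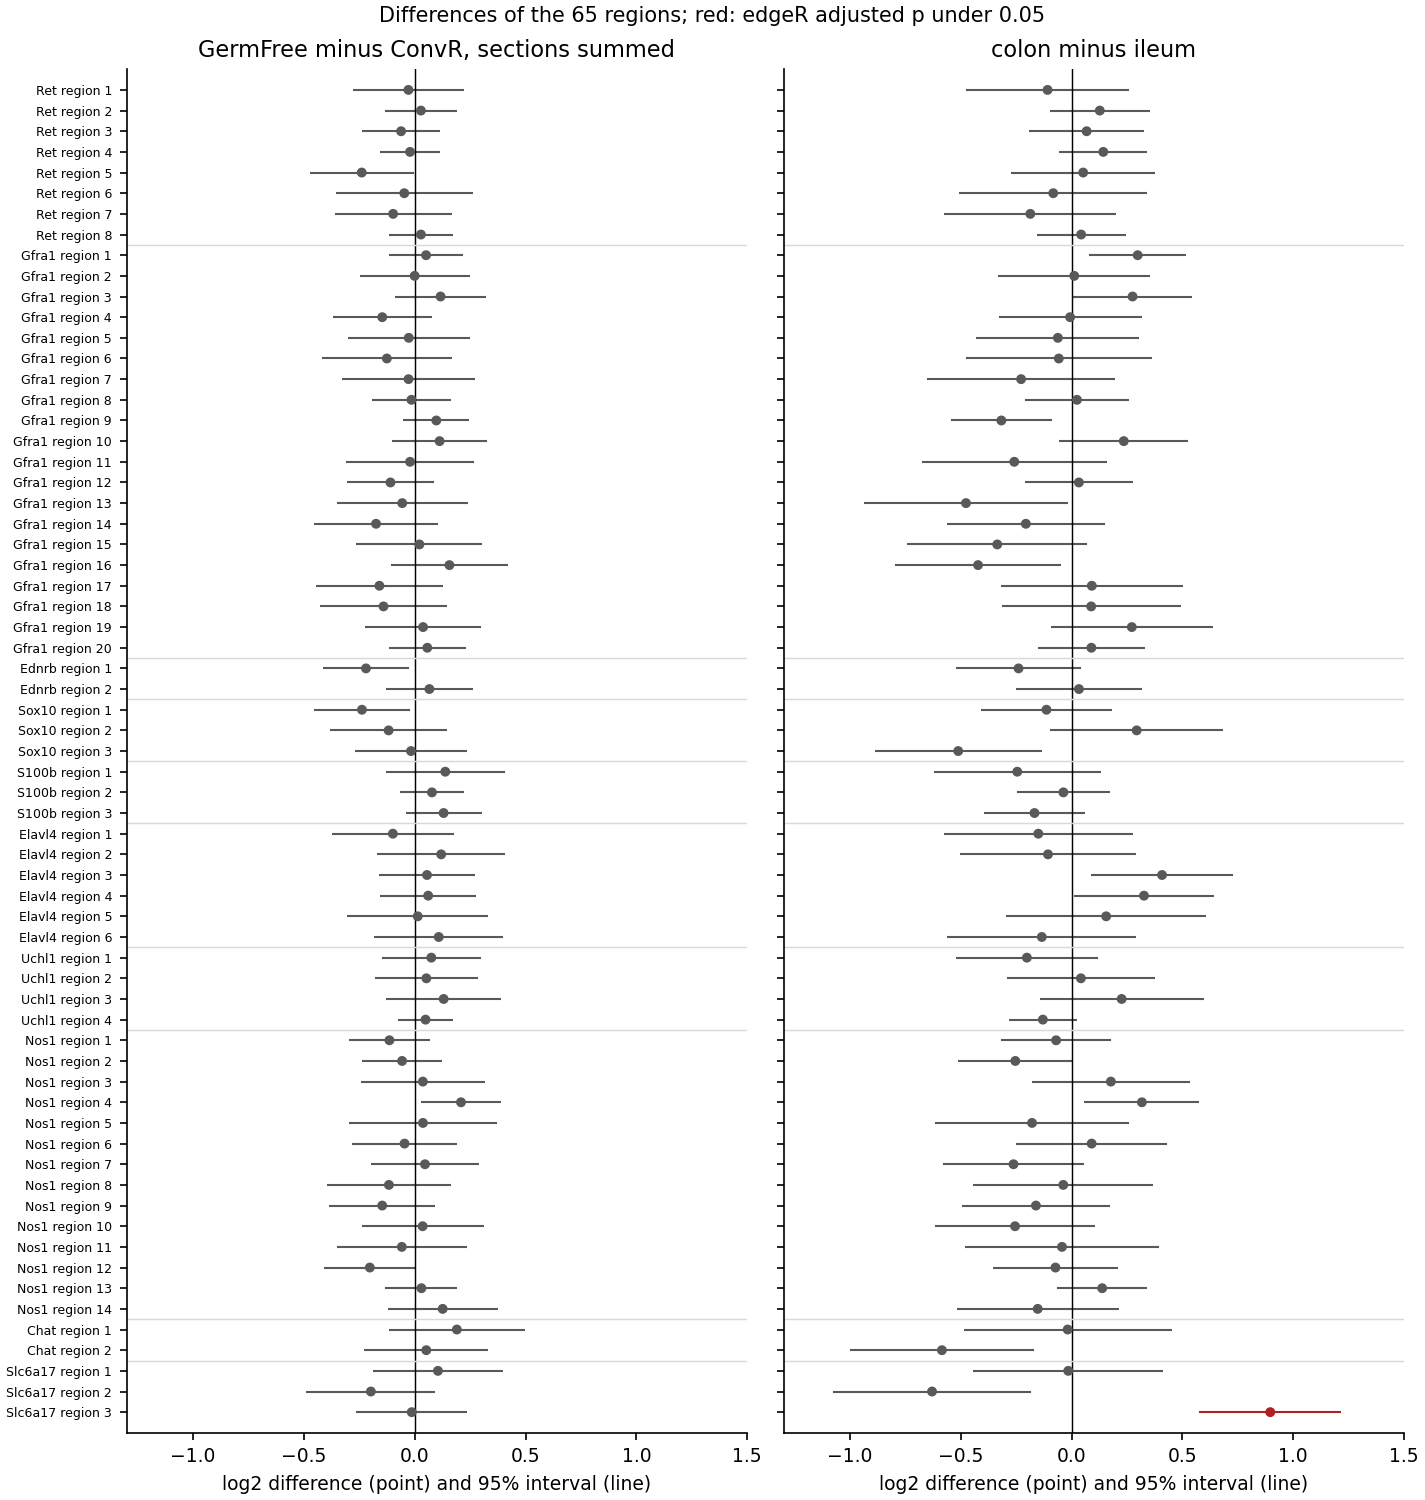
Log2 difference of each of the 65 regions (points) with its 95% interval (lines), GermFree minus ConvR with the sections summed on the left and colon minus ileum on the right. On the left the points lie between -0.24 and 0.21 and none passed; on the right Slc6a17 region 3, at 0.90, is the red one.

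Between sections, 1 of the 65 regions passed: Slc6a17 region 3 was higher in colon than in ileum. All sections of both models were fitted together and the difference was averaged over the models. In colon against ileum 1 of 65 regions (1.54%) passed in edgeR, where 2.21% of all 95876 tested regions did. Of all regions 1.51% were higher in colon and 0.692% lower. The share is close to the background and says nothing particular about these genes. At an unadjusted p under 0.05 there were 12 of the 65, which is 18.5%, against 15.2% of all regions.

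Slc6a17 region 3 (chr3:107494954-107496416, 1463 bases, inside the gene) lay downstream of both annotated starts. It had 16.04 counts per library on average and an authors' score of 0. In GermFree mice 1 to 7 it had 11.09, 11.43, 9.68, 7.85, 9.85, 8.04 and 9.68 CPM in colon, against 9.25, 11.58, 6.42, 5.00, 7.85, 6.501 and 5.33 CPM in ileum. In ConvR mice 1 to 5 it had 12.89, 14.50, 9.05, 10.73 and 8.97 CPM in colon, against 4.05, 4.72, 2.50, 5.42 and 4.28 CPM in ileum. Colon was above ileum in 11 of 12 mice, GermFree mouse 2 being the exception, and the ConvR colons did not overlap the ConvR ilea. The log2 difference was 0.90 (SE 0.16), a fold of 1.86, with an edgeR adjusted p of 0.00165. With the mouse as a block it was 0.89 with an edgeR adjusted p of 2.13e-05, in a fit that called 3445 of 95876 regions. DESeq2 gave 0.90 (SE 0.18, unadjusted p = 1.00e-06) and no adjusted p, since its filter on mean counts kept 16 of the 65 regions and not this one. The edgeR call held when each of the 12 mice was left out in turn, with edgeR adjusted p-values between 0.000500 and 0.0127.

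The difference was 0.45 (edgeR adjusted p = 0.259) in GermFree mice alone and 1.34 (edgeR adjusted p = 0.0608) in ConvR mice alone. The fit of GermFree mice alone called 1413 of 90538 regions and that of ConvR mice alone called 0 of 91070, so a missing call in ConvR mice alone says nothing about this region. The test of whether sections differed between the models gave Slc6a17 region 3 the smallest p of the 65, 0.00969 in edgeR, with an adjusted p of 0.986. That test called 0 of the 65 and 0% of all regions, with 1 of the 65 at an unadjusted p under 0.05. DESeq2 called 0 of the 65 as well, also with 1 at an unadjusted p under 0.05. In the other sections the levels in GermFree mice ran from 4.05 to 12.97 CPM in duodenum (median 8.27) and from 4.29 to 10.44 CPM in jejunum (median 5.50). In ConvR mice 1 to 5 they were 8.998, 8.79, 3.41, 6.54 and 6.74 CPM in duodenum and 7.63, 10.52, 8.98, 6.40 and 9.14 CPM in jejunum. Over both models the means were 7.34 ± 2.68 CPM in duodenum, 7.29 ± 2.25 CPM in jejunum, 6.07 ± 2.49 CPM in ileum and 10.3 ± 1.95 CPM in colon (SD, n = 12 each). In GermFree mice the lowest mean was that of jejunum, with 7.42 ± 2.34 CPM in ileum and 6.41 ± 2.33 CPM in jejunum (SD, n = 7), and their values overlapped. In ConvR mice the lowest mean was that of ileum, with 4.19 ± 1.08 CPM in ileum and 8.54 ± 1.57 CPM in jejunum (SD, n = 5).

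**Figure D5:**
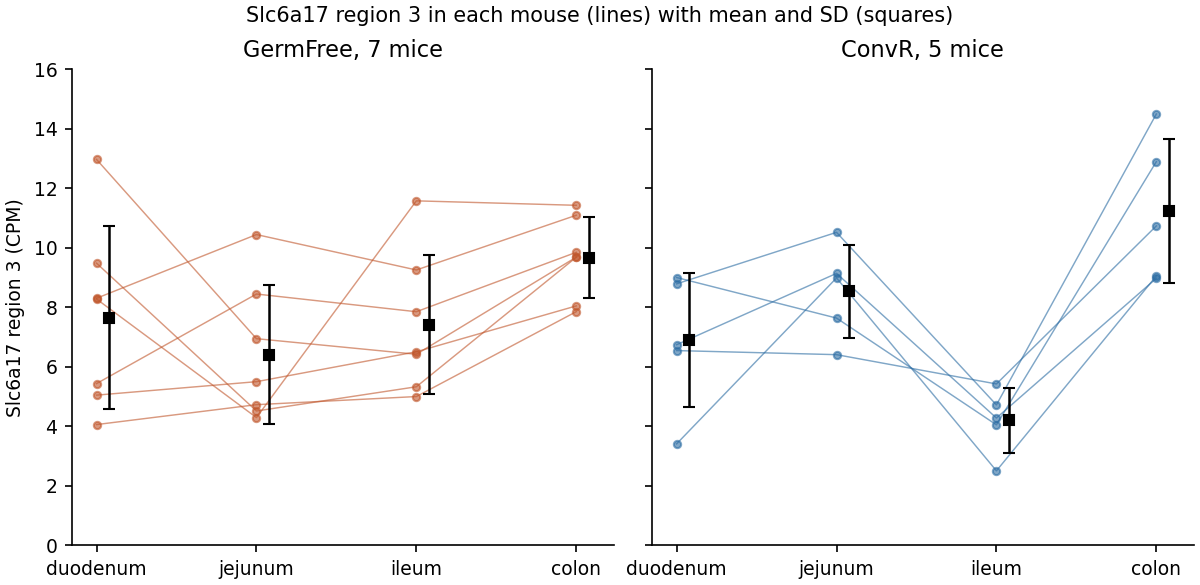
Level of Slc6a17 region 3 in CPM (vertical axis) along the 4 sections; each line is a mouse, GermFree left and ConvR right, and squares give the mean with SD. In ConvR mice all 5 colons (8.97 to 14.50 CPM) lie above all 5 ilea (2.50 to 5.42 CPM), while GermFree colons and ilea overlap.

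The other regions of Slc6a17 did not follow region 3. Region 2 (chr3:107476901-107477420) averaged 3.06 ± 1.47 CPM in colon and 4.76 ± 0.68 CPM in ileum (SD, n = 12 each), a log2 difference of -0.63 (SE 0.23) that did not pass in edgeR (adjusted p = 0.129). It was higher in colon in 1 of 12 mice. Summed over its 3 regions, Slc6a17 had a log2 difference of 0.28 between colon and ileum (edgeR adjusted p = 0.149). In edgeR 0 of the 10 genes passed as totals between colon and ileum, where 4.74% of all genes did, and Slc6a17 was the 1 gene at an unadjusted p under 0.05.

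In colon against duodenum 0 of the 65 passed in edgeR, where 1.19% of all regions did, with 6 of the 65 (9.23%) at an unadjusted p under 0.05, where 13.1% of all regions were. DESeq2 gave an adjusted p for 5 of the 65 and called 0, with 4 at an unadjusted p under 0.05. Slc6a17 region 3 was nearest, with a difference of 0.52 on the log2 scale (SE 0.15, edgeR adjusted p = 0.0558). It was called with the mouse as a block (edgeR adjusted p = 0.0228), where 2321 of 95876 regions were, against 1143 without the block. It was also called when GermFree mouse 3 was left out (edgeR adjusted p = 0.0241). Colon exceeded duodenum there in 11 of 12 mice. Gfra1 region 3 (chr19:58255614-58257525, inside the gene) averaged 11.1 ± 2.25 CPM in colon and 8.62 ± 2.40 CPM in duodenum (SD, n = 12 each). Its log2 difference was 0.47 (SE 0.14, edgeR adjusted p = 0.0687). Without ConvR mouse 3, whose duodenum had 12.94 CPM and whose colon had 7.76 CPM, it was 0.64 (edgeR adjusted p = 0.00625) and was called, as it also was without GermFree mouse 7 (0.52, edgeR adjusted p = 0.0453). Elavl4 region 3 had a log2 difference of 0.42 (SE 0.16). As totals 0 of the 10 genes passed in edgeR, and 0 had an unadjusted p under 0.05, where 3.51% of all genes passed.

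The remaining pairs of sections called none of the 65. All regions together gave 0% in colon against jejunum, 0.00209% in ileum against duodenum, 0% in ileum against jejunum and 0% in jejunum against duodenum. These shares depend on the fit. With the mouse as a block, edgeR called 316, 2, 1 and 15 of 95876 regions in the same order. In colon against jejunum, GermFree mice alone gave 1165 of 90538 regions and ConvR mice alone 0 of 91070. At an unadjusted p under 0.05 there were 5 of the 65 (7.69%) in colon against jejunum, where 8.62% of all regions were, and 6 (9.23%) in ileum against duodenum, where 4.74% were. There were 5 (7.69%) in ileum against jejunum, where 6.76% of all regions were, and 3 (4.62%) in jejunum against duodenum, where 5.42% were. DESeq2 called 0 of the 65 in each, with 3, 2, 2 and 1 at an unadjusted p under 0.05. In colon against jejunum Slc6a17 region 3 was again first, with a difference of 0.48 on the log2 scale (SE 0.15, edgeR adjusted p = 0.272). In ileum against duodenum Nos1 region 7 had 0.54 (SE 0.16) and Uchl1 region 3 had -0.43 (SE 0.18). In ileum against jejunum Nos1 region 4 had -0.39 (SE 0.13), and in jejunum against duodenum Gfra1 region 2 had 0.62 (SE 0.17). These comparisons share libraries with each other, so their values are not separate evidence. As totals 0 of the 10 genes passed in edgeR in these 4 pairs, with 1, 1, 1 and 0 at an unadjusted p under 0.05, where 0.043%, 0.00992%, 0% and 0% of all genes passed.

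Between the models none of a wider set of neural regions passed, and between colon and ileum a few did. The 8 lists covered GDNF family ligands and Ret signalling, the endothelin pathway and other Hirschsprung genes, neural crest transcription factors, neuronal cytoskeleton and vesicle genes, transmitter enzymes, neuropeptides, glia genes and Slc6 transporters. They held 154 genes, of which 119 had a region, and 616 regions in all. In edgeR 0 of the 616 passed between GermFree and ConvR mice with the sections summed, where 0.475% of all regions did, and 34 had an unadjusted p under 0.05, where 6.63% of all regions did. In single sections 0 of the 462 to 539 tested passed, where 0.344% to 0.54% of all regions did, and 22 to 30 had an unadjusted p under 0.05, where 5.13% to 7.44% of all regions did. With shares this low over all regions, 0 calls says nothing particular about neural genes. DESeq2 was not read for these lists. In colon against ileum 9 of 616 (1.46%) passed, and in colon against duodenum 4 of 616 (0.649%), against 2.21% and 1.19% of all regions.

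Both directions occurred among those 9 regions. Higher in colon than in ileum in edgeR were a region of Pax3, a neural crest transcription factor (log2 0.42, adjusted p = 0.0370), one of Stmn2, a microtubule regulator of growing axons (0.37, adjusted p = 0.00985), and one of Cnp, a myelin enzyme (0.42, adjusted p = 0.0173). Lower in colon in edgeR were regions of Spry2, an inhibitor of receptor tyrosine kinase signalling (-0.75, adjusted p = 0.00430), of Ece1, which cleaves the endothelin precursor (-0.64, adjusted p = 0.0400), and of Kif26a, a kinesin-like protein that restrains Ret signalling in mice (-0.36, adjusted p = 0.0116). Lower as well were regions of Ache, the acetylcholine esterase (-0.47, edgeR adjusted p = 0.0113), of the tachykinin gene Tac2 (-0.79, edgeR adjusted p = 0.0444) and of Meis1, a homeobox factor (-0.35, edgeR adjusted p = 0.0471). Those of Stmn2, Ece1, Kif26a and Ache passed in colon against duodenum too, in the same direction.

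Lists of other cells of the gut wall were counted beside these. In colon against ileum 2 of 83 smooth muscle regions passed (Synpo2 at -0.57 and Cald1 at 0.69 on the log2 scale), 1 of 66 regions of interstitial cells of Cajal (Cacna1h, -0.63) and 1 of 22 leukocyte regions (Itgam, -0.69), where 2.21% of all regions did. In edgeR 0 of 41 epithelial and 0 of 71 endothelial regions passed, with 8 of each at an unadjusted p under 0.05, where 15.2% of all regions were. These counts are too small to set any list apart from all regions. How far cell makeup differs between the sections was not tested, since methylation at these genes does not measure it.

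Over the 48 libraries, the genes whose totals were most like that of Gfra1 were Gm32028 (Pearson r = 0.56), Slc45a4 (0.53), Zp3 (0.51), Myo19 (0.50) and Syt8 (0.49). They were ranked among 21357 genes with a mean of at least 10 CPM, where the median r was 0.02. The highest of so many values are high by selection, and whether they exceed chance was not tested. The libraries share section, model and mouse, so these values are a description, and none of the other 9 enteric genes was among the 5.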

How the data were processed

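Methylated DNA was captured by a methyl-CpG-binding domain and sequenced as single-end reads, per the labels' protocols. Per the submitters' processing notes, Trim Galore 0.3.7, cutadapt 1.4.2, MACS2 and featureCounts were used with mm10; the sources used here name neither the aligner nor the treatment of duplicate reads. The authors deposited whole-number counts of reads per region for 95882 regions in 48 libraries, without normalization, and a peak list with positions and the authors' score for each region. Each region's name includes GermFree, so the regions may have been defined on libraries of that model.

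Regions were matched to RefSeq genes (GRCm38.p6, the coordinates of mm10) by overlap or a margin of 5 kb on either side. Quasi-likelihood tests of edgeR 4.0.16 (R 4.3.3) were run on all regions after TMM scaling and filterByExpr, with a trended dispersion, and p-values were adjusted by Benjamini-Hochberg over every region tested, at 0.05. The SE is the log2 difference over the square root of F, and intervals are 1.96 SE on either side. Models were compared on each mouse's total over its 4 sections and within each section. Sections were compared in a fit of 8 groups of model and section. The gene totals are counts summed over all regions within 5 kb. Sections of a mouse come from the same animal and pair the libraries; the deviations of libraries of the same mouse correlated with a median r of 0.0198 over 72 pairs. DESeq2 1.42.0 was an alternative, beside other scalings, filters, blocks and left-out mice. The scripts were tested on simulated data.

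Regions given in full are those past the threshold in a comparison or, with none, the 3 with the smallest p; Ret region 5, Ednrb region 2, Nos1 region 2, Slc6a17 region 2 and, in jejunum, Slc6a17 region 3 were added after their values were seen. Genes of the lists are named where a region passed. The genes, regions and lists were chosen with earlier results of these data known. Intervals cover counting error and the spread between mice, the latter drawn toward a trend over all regions. A median of 7 to 23 counts per region in a library limits the precision of each value.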

Additional observations from a re-analysis of the deposited data

Results flagged for a closer look

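For each gene the region with the highest mean level was examined in the 8 groups of model and section, 80 groups in all, for a mouse that stood apart from the rest of its group. In 3 of the 80 groups 1 mouse did, by a gap to its nearest neighbour that was large for the group's range, and chance flags about 1 in 20 such groups. Gfra1 region 8 had 22.69 CPM in the duodenum of GermFree mouse 3, against 12.7 to 16.9 CPM in the other 6 GermFree duodena. Nos1 region 13 had 26.3 CPM in the ileum of ConvR mouse 1, against 16.5 to 18.7 CPM in the other 4 ConvR ilea. Ednrb region 1 had 7.832 CPM in the jejunum of ConvR mouse 5, against 11.3 to 12.5 CPM in the other 4 ConvR jejuna. None of these values belongs to Slc6a17 region 3.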

How the results depend on the processing

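The counts of the 65 regions called changed only between colon and ileum or duodenum. In colon against ileum, where 1 region passed, 0 passed in GermFree mice alone, where 1413 of 90538 regions did, and 0 in ConvR mice alone, where 0 of 91070 regions did. In DESeq2 0 passed, with 1185 of 25243 regions, and Slc6a17 region 3 had no adjusted p. With regions under the median peak score left out 0 passed, since Slc6a17 region 3 has a score of 0. Without ConvR mice 1 and 3, an alternative chosen after seeing the data, 2 of the 65 passed, where 2888 of 95880 regions did. The other was Chat region 2 (log2 -0.86, edgeR adjusted p = 0.0351). Leaving out each mouse gave 1 to 3. The 3 arose without ConvR mouse 3, where Chat region 2 (-0.79, edgeR adjusted p = 0.0356) and Gfra1 region 9 (-0.41, edgeR adjusted p = 0.0412) joined. In colon against duodenum, where 0 passed, 1 passed with the mouse as a replicate block, where 2321 of 95876 regions did. There 1 passed without ConvR mice 1 and 3, where 1197 of 95880 regions did, and 0 to 1 with each mouse left out. Shares over all regions with a single mouse left out are not given here. Counts this small among 65 regions say nothing particular about these genes. The cause of these changes was not tested. Between ileum and jejunum, the log2 difference of Slc6a17 region 3 was 0.15 in GermFree mice alone, against -0.41 over both models. The other 294 counts of calls under alternatives kept their value or lay within 1.5 times of it, those for GermFree against ConvR included. Mouse numbers do not pair the models: the same number in both gave a median r of -0.0759 over 5 pairs, and a block by number changed no call. All regions together gave 3445 calls in colon against ileum with the mouse as a block, 2115 without it. With 7 to 23 counts in the median region of a library, small differences in a single region are beyond this depth.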
